A study of Drosophila melanogaster with 30 samples.

Results

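H3K4me3 at gene starts was compared between neurons and type I neuroblasts of the Drosophila melanogaster larval brain. The comparison rests on 4 libraries chosen by their labels, 2 of neurons and 2 of type I neuroblasts, among 16 libraries with count files in a series of 30 samples. Cells were isolated from brains of wandering L3 larvae, chromatin was cut with micrococcal nuclease (MNase), and fragments carrying trimethylated histone H3 lysine 4 (H3K4me3) were sequenced. The type I neuroblasts are marked wt in the labels. The other H3K4me3 libraries, 2 of tumour neuroblasts with brat RNAi and 2 of tumour neuroblasts with brat RNAi and numb RNAi, entered the model as estimates of the spread between libraries. The same 4 groups were also profiled for trimethylated lysine 27 (H3K27me3). The strain and genotype, the markers used to isolate the cells and the number of brains per library are not given in the sources used here. Replicate 1 of both neurons and type I neuroblasts carries SBa code 27 and replicate 2 of both carries SBa code 51. The meaning of this code is not stated, so ratios of neurons to type I neuroblasts were also taken within each code.

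H3K4me3 is laid down at the starts of transcribed genes, mainly by the Set1 methyltransferase complex, and it marks the promoter nucleosomes of active genes. A type I neuroblast is a neural stem cell that renews itself and buds off a ganglion mother cell, whose division gives neurons or glia. Neuroblasts hold a transcription factor set that includes Deadpan, Worniu and Asense and segregate fate determinants to one daughter cell, whereas neurons have left the cell cycle and express the machinery of axon growth and synaptic transmission.

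Each gene has 1 short window of fixed length at the outermost start of its model, and H3K4me3 at further starts of a gene was not measured. Total counts in these windows were 10379268 and 12258131 in type I neuroblasts and 9391818 and 5407777 in neurons. Levels are read counts relative to library size after TMM scaling (CPM), log2 fold changes are neurons over type I neuroblasts and are given ± SE, and values of a pair are in the order of codes 27 and 51. Since all windows have the same length, levels can be set side by side between genes. The neuron library of code 51 held 10.6% of its reads in windows below the median abundance of all genes, against 3.5% in the other neuron library and 2.4% and 4.5% in the type I libraries of codes 27 and 51. The libraries of a group are bulk samples, so fewer cells carrying the mark and less mark per cell cannot be told apart. Whether replicates came from separate animals is not stated, and p-values then measure only the spread between these samples, which may be technical.

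The labelled cell types were checked against their markers. The summed H3K4me3 level of the neuroblast markers dpn, wor, ase, mira and insc was 963 and 763 CPM in the type I libraries and 164 and 155 CPM in the neuron libraries of codes 27 and 51. All 5 neuroblast markers were lower in both neuron libraries than in either type I library. The sum over the neuron markers elav, n-syb, Syt1, brp, fne and futsch was 506 and 221 CPM in type I neuroblasts and 763 and 472 CPM in neurons. These sums overlap between the groups: neuron markers carried H3K4me3 in the type I libraries as well, and more of it in replicate 1. Most sums over markers of other cells were lower. The 7 glia markers summed to 56.5 and 112 CPM in type I neuroblasts and 69.6 and 95.97 CPM in neurons, the 6 hemocyte markers to 23.3 and 29.2 against 37.9 and 59.2 CPM, and the 4 muscle markers to 14.2 and 23.4 against 28.4 and 44.1 CPM. The 4 fat body markers summed to 15.3 and 26.5 against 12.6 and 35.4 CPM. The 2 markers of ganglion mother cells and new neurons reached 81.3 and 18.2 CPM against 158 and 65.5 CPM. The 5 photoreceptor markers summed to 194 and 239 CPM against 190.3 and 159 CPM, which in neurons is about the level of the neuroblast markers. In neurons this sum was mostly norpA, at 162 and 108 CPM, while Arr2 held 6.83 and 12.5 CPM. In type I neuroblasts norpA held 115 and 85.0 CPM and Arr2 64.5 and 123 CPM. No marker of these lists was at 0 in every library, but only 98 or 99 genes were at 0 in each library compared. This therefore says little about whether such cells were present, and their part in the results was not tested.

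Past the threshold, falls of H3K4me3 outnumbered rises in the fit over 8 libraries, but this imbalance depended on the model and the scaling. Of 14185 genes tested, 63 (0.444%) were lower and 1 (0.00705%) was higher in neurons at an adjusted p under 0.05 (edgeR's quasi-likelihood test with Benjamini-Hochberg adjustment). At an unadjusted p under 0.05, 736 (5.19%) were lower and 289 (2.04%) higher. Within the codes, 935 genes (6.59%) were at least 2-fold lower and 727 (5.13%) at least 2-fold higher in both, and all 63 falls and the 1 rise were among them. With library totals these counts were 548 lower and 1546 higher, and with offsets that remove the trend with abundance 415 and 446. At a 4-fold limit 159 genes were lower and 6 higher in both codes. A further 17 genes moved at least 2-fold in opposite directions, all of them lower in neurons in code 27 and higher in code 51. The median log2 fold change over all genes was 0.24, and single genes are read against it. It was 0.61 with library totals, 0.10 with DESeq2 size factors and 0.04 with the offsets. With the SBa code as a term in the model, which leaves 1 residual degree of freedom, 2298 genes were lower and 2313 higher. With this term 60 of the genes named by rule changed from not passing to passing in the same direction, and 26 kept their status. Statements below that a gene or list did not pass therefore hold only for the fit without this term. A fit of only the 4 libraries, with 2 residual degrees of freedom, called 426 genes lower (3.0%) and 63 higher (0.444%). Of the genes named by rule that did not pass over all 8 libraries, it called insc, G-ialpha65A, sti, Klp3A, Nmd3, nop5, nAcRalpha-34E, svr, tll, spdo, N, esc, aos, spn-E, RpLP0-like and RpS15Ab lower and Lcch3, Shal, Dscam2, Dscam3, scro, CG15478 and Fili higher, with adjusted p from 0.00031 to 0.039. Leaving out 1 library gave from 2 falls and no rise, without type I replicate 2, to 377 falls and 23 rises, without brat RNAi numb RNAi replicate 1.

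**Figure D1:**
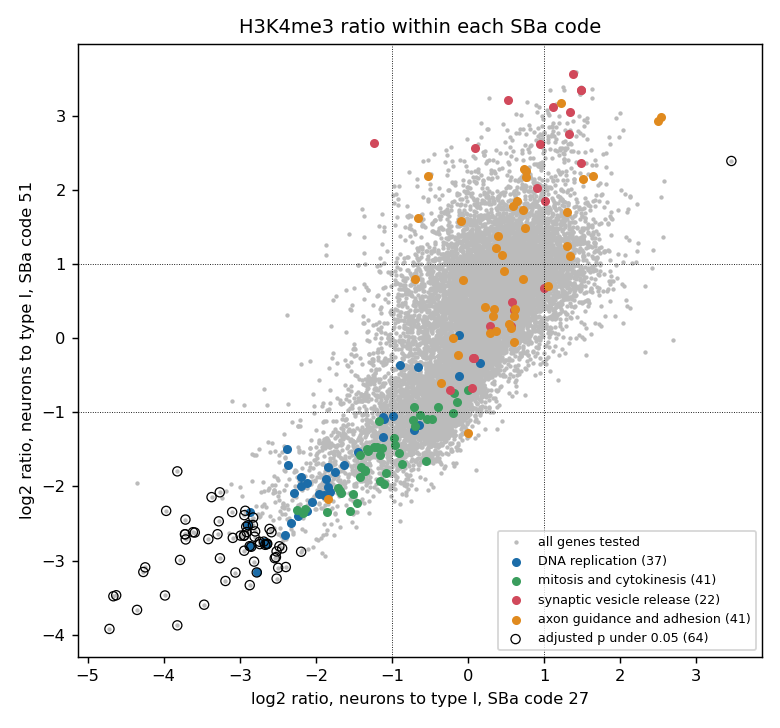
Log2 ratio of H3K4me3 (neurons to type I neuroblasts) within SBa code 27 on the x axis and within SBa code 51 on the y axis, 1 point per gene, with 4 gene lists in colour, the 64 genes past the threshold ringed and dotted lines at 2-fold. DNA replication and mitosis genes lie towards the lower left and synaptic vesicle genes mostly at the upper centre, with larger ratios in code 51.

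Genes that define the neuroblast were among the falls. At dpn, which encodes a self-renewal repressor of the Hes family, H3K4me3 was 246 and 119 CPM in the type I libraries of codes 27 and 51 and 25.2 and 21.3 CPM in neurons. At wor, a Snail family repressor, the levels were 171 and 199 CPM in type I neuroblasts and 24.1 and 24.4 CPM in neurons. The type I libraries differed 2-fold between themselves at dpn, yet both lay above both neuron libraries at either gene. Of the 13 neuroblast transcription factors tested, dpn (log2 fold change -2.97 ± 0.72, adjusted p = 0.022, edgeR) and wor (-2.93 ± 0.72, adjusted p = 0.025) passed. The list was mixed: 6 members were at least 2-fold lower in both codes (dpn, wor, ase, klu, nab and vfl), 1 was at least 2-fold higher (esg), and the median log2 fold change was -0.54. These members and their direction were chosen after their values were seen, apart from dpn and wor. The proneural gene ase had 156 and 180 CPM in type I neuroblasts and 58.9 and 51.1 CPM in neurons, and did not pass (log2 fold change -1.61 ± 0.68, adjusted p = 0.44). The Snail family gene esg had 22.5 and 21.9 CPM in type I neuroblasts and 72.6 and 50.2 CPM in neurons (log2 fold change 1.47, adjusted p = 0.62). At grh, a late neuroblast factor, the window held 3.83 to 11.5 CPM, below the median of all genes in each of the 4 libraries (10.6 to 20.5 CPM).

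Of the asymmetric division machinery 1 gene of 17 fell. The gene mira, whose product carries cell fate determinants to the basal cortex, had 197 and 96.5 CPM in type I neuroblasts and 20.2 and 22.7 CPM in neurons (log2 fold change -2.77 ± 0.71, adjusted p = 0.033, edgeR). All 17 members lay above the median abundance, where 918 of 7092 genes were at least 2-fold lower in both codes. Of the 17, 15 had a lower mean in neurons (all genes 40.5%), 12 had libraries that did not overlap (all genes 19.5%) and 9 were at least 2-fold lower in both codes (all genes 6.59%). The shares of all genes include weakly marked starts, whose median log2 fold changes were positive, so they are not matched for abundance. The median log2 fold change was -1.26, and -0.58 with the abundance-trend offsets, while brat, stau and raps, named after their values were seen, lay between -0.49 and -0.01. At insc, which orients the division axis, levels were 193 and 168 CPM in type I neuroblasts and 35.5 and 35.6 CPM in neurons (log2 fold change -2.34 ± 0.70, adjusted p = 0.095). The gene G-ialpha65A, which encodes the G protein subunit that works with Insc and Pins, had 230.1 and 206 CPM against 60.6 and 27.4 CPM (log2 fold change -2.31 ± 0.70, adjusted p = 0.098). The members numb and dlg1, named after their values were seen, went the other way in both codes. The Notch inhibitor numb had within-code log2 ratios of 1.42 and 2.73, and the scaffold gene dlg1 had 1.51 and 2.75.

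DNA replication genes stood lowest of the 33 gene lists. All 37 members tested lay above the median abundance, where 918 of 7092 genes were at least 2-fold lower in both codes. All 37 had a lower mean in neurons (all genes 40.5%), 29 were at least 2-fold lower in both codes (6.59%) and 31 had libraries that did not overlap (19.5%). Here too the shares of all genes are not matched for abundance. Their median log2 fold change was -1.99, with medians of -1.90 in each code, and it was -1.16 with the abundance-trend offsets. Past the threshold 5 fell (all genes 0.444%): Orc1, Orc2, Cdc6, Mcm2 and Mcm10. The product of Cdc6 loads the replicative helicase onto origins, and its start had 172 and 162 CPM in type I neuroblasts and 24.9 and 17.9 CPM in neurons (log2 fold change -2.96 ± 0.71, adjusted p = 0.022, edgeR). At Orc2, a subunit of the origin recognition complex, levels were 228 and 193 CPM in type I neuroblasts and 30.9 and 27.4 CPM in neurons (log2 fold change -2.85 ± 0.71, adjusted p = 0.031). At Mcm10, needed to activate the helicase, they were 301 and 244 CPM in type I neuroblasts and 40.3 and 42.3 CPM in neurons (log2 fold change -2.72 ± 0.68, adjusted p = 0.031). At Mcm2, a subunit of the helicase itself, they were 161 and 121 CPM against 24.7 and 17.9 CPM (log2 fold change -2.72 ± 0.71, adjusted p = 0.035). In each of these genes the lower type I library held at least 4 times the level of the higher neuron library.

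The replication genes were not uniform. The origin licensing factor dup and its inhibitor geminin, named after their values were seen, had log2 fold changes of -0.01 and -0.89, and the origin complex gene lat had -0.03 at a low level of 12.7 to 18.6 CPM. The clamp loader genes RfC3, RfC4 and RfC38 lay between -1.10 and -0.57. The other MCM helicase genes Mcm3, dpa, Mcm5, Mcm6 and Mcm7 lay between -2.21 and -1.89 without passing. The ribonucleotide reductase genes RnrS and RnrL, which supply deoxynucleotides, were at -2.58 and -1.99.

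Cell cycle regulators and mitosis genes were lower by less. Of 26 cyclins, Cdks and E2F genes, 25 lay above the median abundance. CycE and Cks30A passed, 12 were at least 2-fold lower in both codes (all genes 6.59%), and the median log2 fold change was -1.14 (-0.53 with the offsets). CycE, the cyclin of S phase entry, had 184 and 207 CPM in type I neuroblasts and 13.1 and 25.8 CPM in neurons (log2 fold change -3.33 ± 0.73, adjusted p = 0.0072, edgeR). Cks30A, a small subunit of Cdk complexes, had 266 and 258 CPM in type I neuroblasts and 42.2 and 37.3 CPM in neurons (log2 fold change -2.72 ± 0.69, adjusted p = 0.033). Members with a higher mean in neurons were dap, rux, CycJ, Cks85A, rap and ago, named after their values were seen. The Cdk inhibitor gene dap, used at cell cycle exit, had 53.3 and 34.5 CPM in type I neuroblasts and 94.0 and 58.5 CPM in neurons, and did not pass (log2 fold change 0.80, adjusted p = 0.78).

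All 41 genes of mitosis and cytokinesis lay above the median abundance, where 918 of 7092 genes were at least 2-fold lower in both codes. All 41 had a lower mean in neurons (all genes 40.5%), 34 with libraries that did not overlap (19.5%) and 25 at least 2-fold lower in both codes (6.59%). These shares of all genes include weakly marked starts, whose median log2 fold changes were positive. None passed the threshold over all genes in edgeR, while 23 were lower at an unadjusted p under 0.05 (5.19%). The median log2 fold change was -1.34, and -0.78 with the offsets, under which all 41 were still below 0. At sti, which encodes the Citron kinase of the cytokinetic ring, levels were 249 and 192 CPM in type I neuroblasts and 52.1 and 38.3 CPM in neurons (log2 fold change -2.29 ± 0.70, adjusted p = 0.11, edgeR). At Klp3A, a kinesin of the central spindle, they were 253 and 237 CPM against 56.0 and 46.0 CPM (log2 fold change -2.26 ± 0.70, adjusted p = 0.12). Of 18 nucleolar growth genes, all above the median abundance, 9 were at least 2-fold lower in both codes and the median was -1.12 (-0.50 with the offsets). The snoRNP gene nop5 had 199.7 and 190.4 CPM in type I neuroblasts and 53.04 and 49.1 CPM in neurons (log2 fold change -1.93, adjusted p = 0.24). The ribosome export gene Nmd3 had 173 and 129.6 CPM against 52.0 and 23.5 CPM (adjusted p = 0.22).

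**Figure D2:**
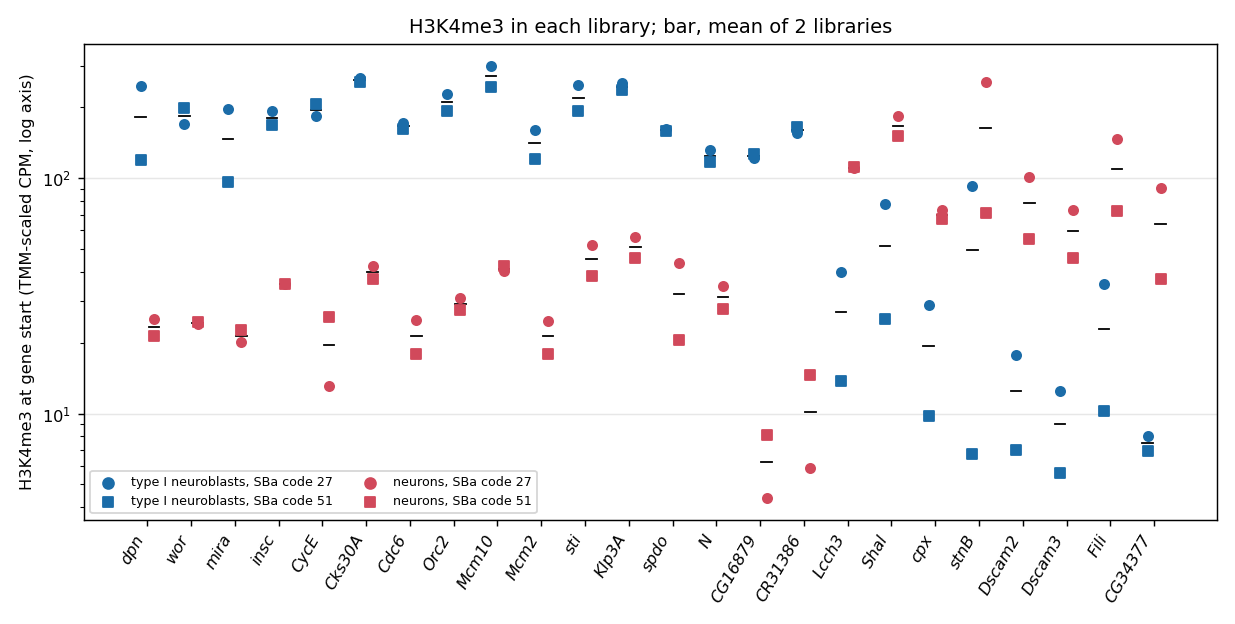
H3K4me3 at the starts of 24 genes named in the text, in TMM-scaled CPM on a log axis, with type I neuroblasts in blue and neurons in red, circles for SBa code 27, squares for SBa code 51, and a bar at the mean of 2 libraries. From dpn to CR31386 both neuron libraries lie below both type I libraries; for stnB the higher type I library lies above the lower neuron library.

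The largest falls were at genes outside these lists. At CG16879 (FBgn0028904, dm3 2L: 14104483 to 14104983, plus strand), H3K4me3 was 121 and 127 CPM in type I neuroblasts and 4.37 and 8.13 CPM in neurons (log2 fold change -4.31 ± 0.77, adjusted p = 0.00031, edgeR). It was the 1 gene of the 64 that passed under all 19 alternative settings. At the non-coding RNA gene CR43650 levels were 148 and 131 CPM against 5.74 and 11.6 CPM, and at CR31386, a further non-coding gene, 155 and 165 CPM against 5.88 and 14.5 CPM. Both had adjusted p = 0.00065. PsGEF, which encodes a guanine nucleotide exchange factor, had 133 and 157 CPM against 9.16 and 10.5 CPM. The tubulin gene betaTub60D had 62.3 and 94.4 CPM against 3.69 and 8.28 CPM (log2 fold change -3.71, adjusted p = 0.0019). CG15047, ptr, CG12496, CG6486 and CG9238 completed the 12 largest falls with CycE and Arr2, at log2 fold changes from -3.96 to -3.16.

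The visual arrestin gene Arr2 was a fall in a list where no other member passed. Its gene model (1670 bases, minus strand) lies within that of CG6486 (3867 bases, plus strand), which also fell. Their windows are close together (8641536 to 8642036 for Arr2, 8640245 to 8640745 for CG6486), so these falls may not be separate. The start of Arr2 had 64.5 and 123 CPM in type I neuroblasts and 6.83 and 12.5 CPM in neurons (log2 fold change -3.28 ± 0.73, adjusted p = 0.010, edgeR). Of 22 phototransduction and eye genes, 19 had a higher mean in neurons (all genes 59.5%) and the median log2 fold change was 0.44. This median was -0.04 with the offsets. Of the other photoreceptor markers norpA held 85.0 to 162 CPM in the 4 libraries, and ninaE, chp and gl 2.76 to 19.2 CPM. The part of photoreceptor cells in this fall was not tested.

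The 63 falls shared several traits. They occupied 62 distinct windows, since KP78a and KP78b have the same window and gene model and cannot be told apart. Of the 63, 58 were protein coding and 3 were long non-coding RNA genes (4.8%, against 2.0% of all genes tested), and 27 (42.9%) had only CG or CR symbols, against 56.7% of all genes. Their median level was 139 CPM in type I neuroblasts and 18.4 CPM in neurons. Neuron levels were not at 0, and in code 27 they ran from 2.19 to 42.6 CPM. For scale, that library had a median of 11.1 CPM over all genes and only 99 genes at 0. Lists held 11 of the 63. Of the rest, several encode proteins of DNA synthesis and repair, which were named after their values were seen: Pole2 (a DNA polymerase epsilon subunit), Ts (thymidylate synthase), Caf1-180 (chromatin assembly at the fork), RecQ4 (a helicase) and Rad51D. They had log2 fold changes between -3.11 and -2.66. Others were the chromatin remodeller Chd3 (-2.92), the BMP ligand gene gbb (-2.77), the Toll family receptor gene Tollo (-2.88), the Toll adaptor gene Myd88 (-2.67) and the transcription factor gene apt (-2.62).

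In the neuroblasts with RNAi most of these 63 genes had levels nearer, on the log scale, to type I neuroblasts than to neurons. By group means these were 61 in brat RNAi and 62 in brat RNAi numb RNAi. The same count over all genes was not made, so these counts have no background. Their median was 100.2 CPM in brat RNAi and 113 CPM in brat RNAi numb RNAi neuroblasts, with CG16879 at 38.2 CPM in brat RNAi. Both brat RNAi libraries lay above both neuron libraries in 62 of 63 genes (11.8% of all genes), and both brat RNAi numb RNAi libraries in 63 of 63 (11.1% of all genes). These groups are compared with the same type I and neuron libraries that chose the genes, and the RNAi libraries also entered that fit. High counts and shares are thus partly built in and are only a description. At dpn the RNAi libraries held 158 and 85.8 CPM with brat RNAi and 86.5 and 144 CPM with brat RNAi and numb RNAi. The exceptions were chosen after their values were seen. CG33494 had a mean of 8.91 CPM in brat RNAi against 58.7 CPM in type I neuroblasts and 7.29 CPM in neurons, and CG43340 had 37.7 CPM against 138.7 and 17.3 CPM.

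Some falls lay close together. Within 50000 bases of another fall lay 19 of the 63, in 8 clusters. Whether this is more than for other genes was not tested. On X, ptr, PsGEF and CG12496 lay within 45110 bases (dm3 X: 2259823 to 2304932), with 1 other gene between them, CG14047, at 4.14 CPM in type I neuroblasts and 4.78 CPM in neurons. On 3L, Cdc6, CG6486 and Arr2 lay within 15356 bases (8626681 to 8642036), and the genes between, CG13305 and Cpr66D, had log2 fold changes of -2.23 and -0.73. On 3R, CR31386 and the shared KP78 window flank the start of pros (7130830 to 7178853, 48024 bases). Pros is the homeodomain factor that ends self-renewal in the ganglion mother cell. Its outer start had 22.9 and 0.44 CPM in type I neuroblasts and 12.99 and 2.18 CPM in neurons, a level that differed more between codes than between groups.

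H3K27me3, the mark of Polycomb repressive complex PRC2, is a readout that took no part in choosing these genes. It was counted over whole gene models, so its levels are compared within a gene. Its neuron replicate 2 carries an SBa code that no type I library shares, so no within-code ratio is given. Of the 63 falls, 56 had a higher mean H3K27me3 in neurons (88.9%, against 55.7% of all genes), and in 36 (57.1%) both neuron libraries lay above both type I libraries, against 18.8% of all genes. A log2 fold change of at least 1 was found in 16 (25.4%, against 2.95%), KP78a and KP78b and the overlapping genes CG6486 and Arr2 included. This count rests on neuron replicate 1: against the type I mean 24 genes were at least 2-fold higher in replicate 1 (38.1%, all genes 5.63%) and 3 in replicate 2 (4.76%, all genes 4.34%), a split made after the data were seen. No gene passed the threshold for H3K27me3 in this comparison in edgeR (smallest adjusted p = 0.53, 1277 of 14182 at an unadjusted p under 0.05). The neuron library of replicate 1 lay above both type I libraries in 37 of the 63 (58.7%, all genes 32.9%). That of replicate 2 did so in 52 (82.5%, all genes 43.1%). Among the 935 genes at least 2-fold lower in both codes these shares were 28.9% for replicate 1 and 73.6% for replicate 2. Among the 935 genes at least 2-fold lower in both codes, 24.7% had both neuron libraries above both type I libraries in H3K27me3, and among the 727 at least 2-fold higher, 10.6%. An H3K27me3 log2 fold change of at least 1 was found in 3.85% of the 935 and 4.95% of the 727, against 2.95% of all genes. The larger share among the 63 falls thus did not extend to the 935.

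The size of this H3K27me3 difference varied widely among the falls. Over CR31386 it was 218 and 197 CPM in type I neuroblasts and 4401 and 821 CPM in neurons (log2 fold change 3.65 ± 0.70). Over CG6486 it was 40.7 and 33.5 CPM against 504 and 89.8 CPM, and over Arr2 21.9 and 14.3 CPM against 214 and 35.3 CPM. In these genes the neuron libraries lay above the type I libraries but differed more than 5-fold between themselves. The gene model of Arr2 lies within that of CG6486, so their H3K27me3 counts are not separate readouts. The genes between the falls of the 3L cluster, Cpr66D and CG13305, had H3K27me3 log2 fold changes of 3.30 and 3.27. Over pros the levels were 687 and 614 CPM against 1613 and 802 CPM. The 3 genes of the X cluster had H3K27me3 log2 fold changes between 0.97 and 1.53. Neuroblast and cell cycle genes among the falls varied as well. Over dpn H3K27me3 was 16.7 and 17.2 CPM against 21.6 and 22.5 CPM, over mira 22.2 and 23.1 against 17.1 and 18.1 CPM, and over Cks30A 13.6 and 12.7 against 7.37 and 11.04 CPM. Over wor it was 16.6 and 19.3 CPM against 44.2 and 18.03 CPM, where neuron replicate 1 but not replicate 2 stood above both type I libraries. Cdc6, CycE, Pole2 and Caf1-180 had H3K27me3 log2 fold changes of 0.77, 0.70, 1.06 and 1.20. The list medians were 0.52 for neuroblast transcription factors, 0.54 for asymmetric division and 0.10 for DNA replication, against 0.50 for the 63 falls and 0.08 for all genes.

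**Figure D3:**
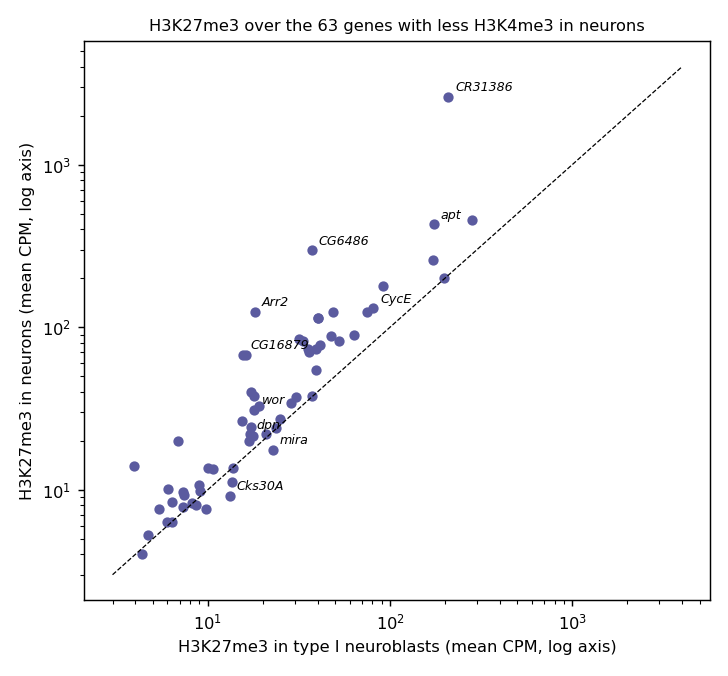
Mean H3K27me3 over the gene model in type I neuroblasts (x axis) and neurons (y axis), in TMM-scaled CPM on log axes, for the 63 genes with lower H3K4me3 in neurons, with the dashed line at equal levels. Most points lie above the line, CR31386, CG6486 and Arr2 farthest, while mira and Cks30A lie below it.

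The 1 rise past the threshold was CG34377 (FBgn0263117, dm3 3R: 18149316 to 18149816, minus strand). Its H3K4me3 was 8.01 and 6.92 CPM in type I neuroblasts and 90.6 and 37.5 CPM in neurons (log2 fold change 3.10 ± 0.79, adjusted p = 0.033, edgeR), and the 4 libraries of RNAi neuroblasts held 4.44 to 9.64 CPM. This call was lost with library totals, with the abundance-trend offsets and in 5 of the 8 fits that left out 1 library. The other large rises that were at least 2-fold in both codes did not pass. The homophilic adhesion genes Dscam2 and Dscam3, of the Down syndrome cell adhesion molecule family, came nearest. Dscam2 had 17.8 and 7.01 CPM in type I neuroblasts and 101.6 and 55.2 CPM in neurons (log2 fold change 2.66 ± 0.76, adjusted p = 0.067). Dscam3 had 12.4 and 5.59 CPM against 73.5 and 46.0 CPM (log2 fold change 2.73 ± 0.77, adjusted p = 0.064). Fili had 35.5 and 10.2 CPM against 146.8 and 72.9 CPM, and CG11085 7.73 and 10.7 CPM against 46.2 and 40.8 CPM. CG15478 had 15.6 and 3.73 CPM against 94.3 and 17.1 CPM, so that its neuron library of code 51 was near the type I library of code 27. CG42747 had 14.6 and 5.06 CPM against 58.6 and 34.7 CPM, and the non-coding gene CR43148 had 16.3 and 5.42 CPM against 59.3 and 37.0 CPM. Dscam4, a paralogue named after its values were seen, was lower instead, at 59.2 and 124 CPM against 16.4 and 27.3 CPM (log2 fold change -2.07, adjusted p = 0.20).

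Genes of synaptic vesicle release had the highest median of the lists, 1.18 on the log2 scale, with 18 of 22 members at a higher mean in neurons (all genes 59.5%). No member passed, 7 were higher at an unadjusted p under 0.05 (2.04%), and 8 were at least 2-fold higher in both codes (5.13%). These counts include both stnA and stnB, which share 1 window. The member nearest to passing was cpx, the complexin that clamps vesicle fusion, with 29.0 and 9.77 CPM in type I neuroblasts and 73.0 and 67.2 CPM in neurons (log2 fold change 1.86 ± 0.73, adjusted p = 0.36, edgeR). The endocytosis gene stnB had 92.4 and 6.75 CPM against 258 and 71.0 CPM (log2 fold change 1.73, adjusted p = 0.37). The type I libraries differed more than the groups did: replicate 1 was above replicate 2 in 22 of 22 members, with medians of 99.1 and 14.5 CPM, while the neuron medians were 239.8 and 75.9 CPM. The ratio was accordingly larger in code 51 (median 2.196) than in code 27 (median 0.75). Without type I replicate 1 the list median was 2.39 and without type I replicate 2 it was 0.52.

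**Figure D4:**
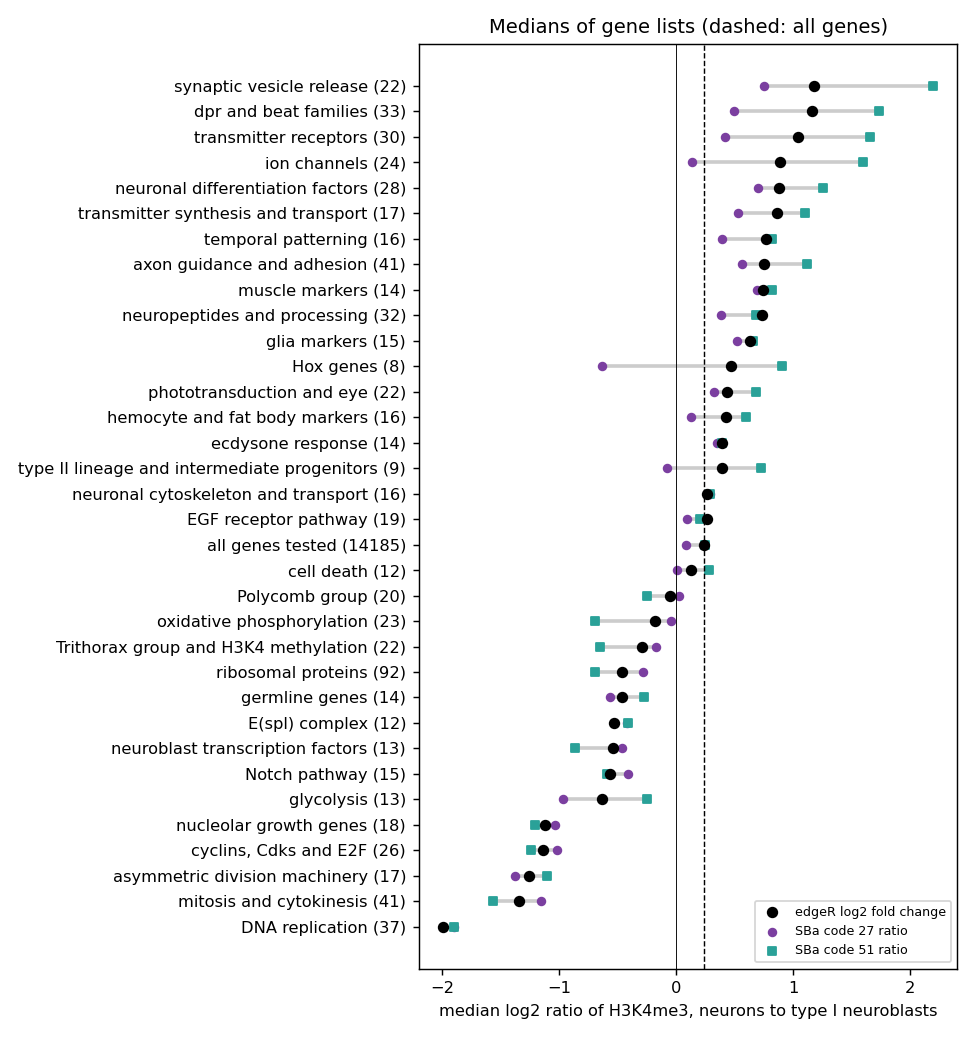
Median log2 ratio of H3K4me3 (neurons to type I neuroblasts) of 33 gene lists and of all genes, with the edgeR log2 fold change in black and the ratios within SBa codes 27 (purple) and 51 (green); numbers of genes are in brackets and the dashed line is the median of all genes. The 5 lowest lists are those of replication, mitosis, asymmetric division, cell cycle regulators and nucleolar growth, and most neuronal lists have higher ratios in code 51; neuronal cytoskeleton genes have 0.29 in both codes.

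Other neuronal lists had higher means in neurons with no member past the threshold. Such medians were not limited to neuronal genes: muscle markers had a median log2 fold change of 0.74 (13 of 14 at a higher mean) and glia markers 0.63 (13 of 15), which were 0.23 and 0.12 with the offsets. Of 41 axon guidance and adhesion genes, 33 lay above the median abundance. A higher mean was found in 36 (all genes 59.5%), 21 had libraries that did not overlap (23.6%) and 8 were at least 2-fold higher in both codes (5.13%). Their median log2 fold change was 0.75. Of 30 transmitter receptors 28 had a higher mean (all genes 59.5%), with a median of 1.04, and 2 were at least 2-fold higher in both codes (5.13%). Only 9 of the 30 lay above the median abundance. Weakly marked genes had positive medians in general, 0.58 to 0.77 in the 5 lowest bins by abundance. The GABA receptor subunit gene Lcch3 had 40.1 and 13.8 CPM in type I neuroblasts and 110.6 and 111 CPM in neurons (log2 fold change 2.05 ± 0.70, adjusted p = 0.21, edgeR). The nicotinic receptor subunit gene nAcRalpha-34E went the other way, with 63.9 and 71.9 CPM against 11.2 and 22.4 CPM (log2 fold change -2.02, adjusted p = 0.22). Of 24 ion channel genes 23 had a higher mean (all genes 59.5%), with a median of 0.89, and 8 lay above the median abundance. The potassium channel gene Shal had 78.0 and 25.1 CPM against 183 and 151 CPM (log2 fold change 1.70, adjusted p = 0.39). A further potassium channel gene, eag, had 4.70 and 4.08 CPM against 9.98 and 20.2 CPM.

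The dpr and beat families, which encode immunoglobulin-domain proteins of synaptic partner recognition and axon fasciculation, had a higher mean in neurons in 32 of 33 members. Over all genes a higher mean was found in 59.5%. The median log2 fold change of these families was 1.17, and 9 were at least 2-fold higher in both codes (all genes 5.13%). Levels stayed low, with 7 of 33 members above the median abundance: the median was 8.68 CPM in type I neuroblasts and 17.5 CPM in neurons. The gene beat-VI had 14.6 and 6.84 CPM in type I neuroblasts and 39.4 and 36.7 CPM in neurons (log2 fold change 1.83, adjusted p = 0.45, edgeR). The gene dpr8 had 4.97 and 4.26 CPM against 12.4 and 20.5 CPM. With the abundance-trend offsets the median of these families was 0.49, that of receptors 0.41 and that of channels 0.58, while synaptic vesicle genes kept 1.17 and guidance genes had 0.92.

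Of 17 genes for transmitter synthesis and transport, all had a higher mean (all genes 59.5%) and 4 lay above the median abundance. Their median log2 fold change was 0.86, but 5 were below 0 with the offsets (median 0.31). The vesicular GABA transporter gene VGAT had 79.96 and 14.1 CPM in type I neuroblasts and 156.8 and 92.5 CPM in neurons (log2 fold change 1.41, adjusted p = 0.64, edgeR). The acetylcholine transporter gene VAChT, whose window overlaps that of Cha by 430 bases, had 33.6 and 10.7 CPM against 71.2 and 44.6 CPM. The list of neuronal cytoskeleton genes had a median of 0.27, near that of all genes, and 0.45 with the offsets (all genes 0.04). Its member tau, for the microtubule-associated protein, had 44.6 and 10.1 CPM against 72.6 and 83.5 CPM (log2 fold change 1.52, adjusted p = 0.60), and nrv3 55.7 and 5.33 CPM against 116.9 and 40.1 CPM. Of 32 neuropeptide and processing genes, 6 lay above the median abundance. A higher mean was found in 29 (all genes 59.5%), with a median log2 fold change of 0.73. With the offsets this median was 0.21 and 13 were below 0. The prohormone convertase gene amon had 24.0 and 11.3 CPM against 42.8 and 51.4 CPM. The carboxypeptidase gene svr was lower, with 167 and 137 CPM against 44.3 and 27.7 CPM (log2 fold change -2.08, adjusted p = 0.19).

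Neuronal differentiation factors, mostly transcription factors and RNA-binding proteins, had 23 of 28 members at a higher mean (all genes 59.5%). Of the 28, 9 were at least 2-fold higher in both codes (5.13%) and 16 lay above the median abundance. Their median log2 fold change was 0.88, and 0.77 with the offsets. The RNA-binding protein gene mub had 3.87 and 7.99 CPM in type I neuroblasts and 19.0 and 28.7 CPM in neurons (log2 fold change 2.00, adjusted p = 0.43, edgeR). CG42458 had 8.15 and 6.04 CPM against 30.5 and 29.3 CPM (log2 fold change 2.08, adjusted p = 0.32). The LIM homeodomain gene ap, named after its values were seen, had 29.6 and 30.9 CPM against 121 and 63.6 CPM. The pan-neuronal gene elav had 273 and 163 CPM in type I neuroblasts and 385 and 185 CPM in neurons, so its start was marked in both cell types and the libraries overlap.

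In the Notch pathway no member passed, and 3 of 15, the receptor gene N, its regulator gene spdo and the ligand gene Dl, were at least 2-fold lower in both codes. At N levels were 132 and 118 CPM in type I neuroblasts and 35.0 and 27.7 CPM in neurons (log2 fold change -1.99 ± 0.69, adjusted p = 0.22, edgeR). The gene spdo, whose product promotes Notch signalling after asymmetric division, had 162 and 159 CPM against 43.7 and 20.5 CPM (log2 fold change -2.32 ± 0.70, adjusted p = 0.097). The ligand gene Dl, the effector gene Su(H) and the co-activator gene mam, named after their values were seen, had log2 fold changes of -1.75, 0.10 and 0.52. The list median was -0.57, and -0.02 with the offsets. Of the E(spl) complex, the Notch target genes HLHmgamma and HLHmbeta had 26.1 and 53.7 CPM against 9.16 and 14.8 CPM, and 68.1 and 106 CPM against 36.4 and 22.2 CPM (adjusted p of 0.39 and 0.49).

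Temporal factors and other patterning genes gave no call. The orphan receptor gene tll had 74.0 and 69.2 CPM in type I neuroblasts and 14.9 and 19.6 CPM in neurons (log2 fold change -2.05, adjusted p = 0.21, edgeR). The homeobox gene scro had 37.7 and 11.98 CPM against 201 and 23.4 CPM (log2 fold change 2.18, adjusted p = 0.17), a difference carried mostly by code 27. In the type II lineage list, erm, which acts in intermediate progenitors, had 19.9 and 27.4 CPM against 39.9 and 51.8 CPM, and the adhesion gene Fas1 75.7 and 27.8 CPM against 146 and 139 CPM. In the EGF receptor pathway the secreted antagonist gene aos had 55.8 and 93.2 CPM against 10.1 and 13.9 CPM (log2 fold change -2.63 ± 0.72, adjusted p = 0.053), and rho, a protease that releases the ligand, 11.9 and 11.1 CPM against 22.96 and 47.8 CPM. Over aos H3K27me3 was 58.4 and 64.5 CPM in type I neuroblasts and 309 and 143 CPM in neurons. The ecdysone response genes Eip75B and ftz-f1 had 77.2 and 8.97 CPM against 199.6 and 76.5 CPM, and 224 and 227 CPM against 135 and 109 CPM. The Hox genes abd-A and Antp held between 4.78 and 32.9 CPM in the 4 libraries, and the Hox list changed sign between the codes, with medians of -0.63 and 0.91.

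Chromatin regulators, ribosomal protein genes and metabolic genes held no call, and their medians lay below the 0.24 of all genes. Most of these genes lay above the median abundance. With the offsets the median of all genes was 0.04, and those of Polycomb group and oxidative phosphorylation genes lay above it. The median log2 fold change was -0.05 (0.16 with the offsets) over 20 Polycomb group genes and -0.29 (-0.06 with the offsets) over 22 Trithorax group and H3K4 methylation genes, of which 18 had a lower mean in neurons. The PRC2 subunit gene esc had 215 and 192 CPM in type I neuroblasts and 75.2 and 36.7 CPM in neurons (log2 fold change -1.86, adjusted p = 0.28, edgeR). The PRC1 gene Su(z)2 had 42.3 and 19.1 CPM against 81.2 and 99.2 CPM (log2 fold change 1.56, adjusted p = 0.52). Among H3K4 methyltransferases and their subunits, trr had 148 and 132 CPM against 106 and 33.7 CPM and Dpy-30L1, a shared subunit of these complexes, 212 and 164 CPM against 133 and 52.6 CPM. Of 92 ribosomal protein genes, 80 had a lower mean in neurons (all genes 40.5%), at a median of -0.46 (-0.29 with the offsets), and 4 were at least 2-fold lower in both codes. Of the 92, 86 lay above the median abundance, and the share of all genes is not matched for this. The largest differences were at RpLP0-like (log2 fold change -1.99, adjusted p = 0.21) and RpS15Ab (-1.75, adjusted p = 0.34). RpS15Ab has a close copy with which its reads could be split. Of 13 glycolysis genes 10 had a lower mean, with a median of -0.64 that was -0.97 in code 27, -0.25 in code 51 and near 0 with the offsets. Among them Eno, whose window overlaps that of Rrp40 by 107 bases, had a log2 fold change of -1.69. Pfk had 1.84 at low levels, with 3.45 and 4.35 CPM in type I neuroblasts and 12.6 and 15.5 CPM in neurons. Neither gene passed (adjusted p of 0.40 and 0.58, edgeR). Oxidative phosphorylation genes had a median of -0.18, which was 0.07 with the offsets. Among them ATPsyn-beta, on chromosome 4, had 197 and 27.4 CPM against 367 and 38.9 CPM, a difference between codes that exceeds the one between groups.

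Of the remaining lists, germline genes had a median of -0.46 and included spn-E, a helicase of the piRNA pathway, with 113 and 139.7 CPM in type I neuroblasts and 23.8 and 28.9 CPM in neurons (log2 fold change -2.26 ± 0.69, adjusted p = 0.11, edgeR). The gene bam had 17.5 and 34.1 CPM against 8.48 and 16.8 CPM. The trehalose transporter gene Tret1-1, of the glia list, had 56.8 and 24.0 CPM against 8.89 and 12.8 CPM (log2 fold change -1.90, adjusted p = 0.28), while the other named glia, muscle, hemocyte and eye genes (nrv2, Mhc, bt, Hml, eater, rdgC and trpl) stayed under 20 CPM. The cell death genes W, also called hid, and Dcp-1, a caspase gene, had log2 fold changes of 1.27 and 1.02 and did not pass (adjusted p = 0.78 for both).

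The direction of the H3K4me3 ratio differed with the mean abundance of a start. When genes were placed in 10 bins by their mean abundance over the 8 libraries, the median log2 fold change was between 0.58 and 0.77 in bins 1 to 5, 0.23 in bin 6, -0.80 in bin 7 and -0.65, -0.42 and -0.12 in bins 8 to 10. Falls past the threshold lay in bins 6 to 9, with 40 of 63 in bin 7. Of the 727 genes at least 2-fold higher in both codes, 167 lay above the median abundance, against 918 of the 935 lower genes. The abundance is a mean over the compared libraries and those of RNAi neuroblasts, so most of its libraries are of neuroblasts. A gene marked only in neuroblasts is thereby placed in a higher bin than one marked only in neurons. How much of this split comes from the binning was not tested. The neuron library of code 51 also had the largest share of reads in weakly marked windows among the 4 libraries, and the part of this in the trend was not tested. With offsets that remove the trend 8 falls and no rise passed, 7 of them among the 63. Chromosome arms differed little, with median log2 fold changes of 0.20 to 0.27 on the main arms and X, and 0.68 over the 85 genes of chromosome 4.

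**Figure D5:**
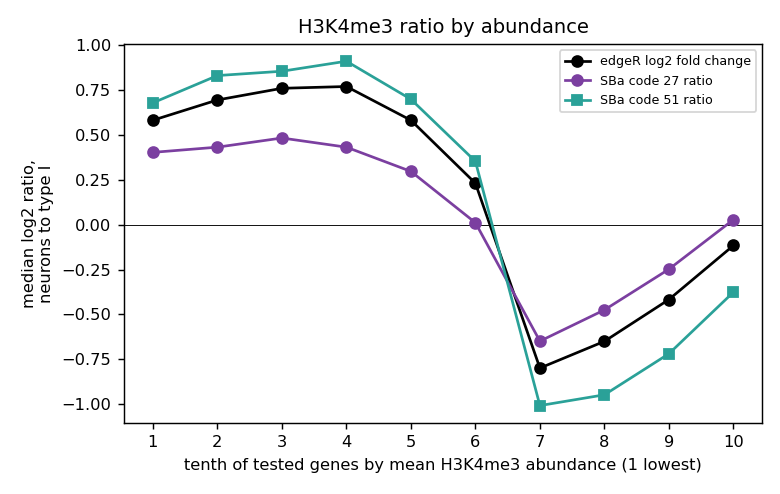
Median log2 ratio of H3K4me3 (neurons to type I neuroblasts) in 10 bins of genes ordered by mean abundance, lowest at the left, with the edgeR log2 fold change in black and the ratios within SBa codes 27 (purple) and 51 (green). The edgeR median is above 0 in bins 1 to 6 and lowest, at -0.80, in bin 7.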

How the data were processed

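Cells were profiled by MNase ChIP-seq for H3K4me3 and H3K27me3. The authors deposited counts: unnormalized whole reads for each gene, taken in a short fixed window at the gene start for H3K4me3 and over the gene model for H3K27me3. The submitters' processing notes name the build dm3, bedtools 2.25.0, deepTools 2.5.0.1 and Bowtie2 2.2.4. Duplicate handling and strand are not given in the sources used here. The 14 input samples were not used here, so no input was subtracted. Models were fitted with edgeR 4.0.16 in R 4.3.3 (robust quasi-likelihood F-test, TMM scaling, default low-count filter by group) over all 8 libraries of a mark, with group means and 4 residual degrees of freedom. P-values were adjusted by Benjamini-Hochberg over all genes tested (threshold 0.05). SE is the size of the log2 fold change over the root of F. Within-code ratios used a prior count of 2 and have no test, with 1 library per group in each code. The chi-square between the counts of both libraries, over its degrees of freedom, was 51.0 in type I neuroblasts and 74.9 in neurons, so neither pair was a copy. The fit was run on simulated counts with known fold changes. These were drawn without an effect of the SBa code and without a trend with abundance, so the run does not bear on either. DESeq2 1.42.0 was an alternative.

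Named genes are the 12 largest falls and up to 12 largest rises past the threshold above the median abundance, up to 4 members past it per list, the 2 next members of lists with fewer than 2, and the 8 largest rises at least 2-fold in both codes. The 33 lists matched 751 of 755 entries. The libraries compared and these lists were chosen with earlier results of these data known.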

Additional observations from a re-analysis of the deposited data

How the results depend on the processing

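The 63 falls and 1 rise depended on the libraries and the scaling. With only the 2 groups in the fit 426 genes were lower and 63 higher, with DESeq2 363 and 13 of 7313 tested, with library totals 373 and 99, with DESeq2 size factors in edgeR 18 and 1, with abundance-trend offsets 8 and 0, and with a minimum of 10 CPM in 2 libraries 101 and 1; all 64 genes were kept in the fit of 2 groups and by DESeq2, 60 with totals, 18 with size factors and 7 with offsets. No filter, leaving out chromosome 4 and leaving out overlapping windows gave 63, 66 and 46 falls and 1 rise each. Leaving out 1 library gave 2 to 377 falls and 0 to 23 rises: 11 and 22 without type I replicate 1, 2 and 0 without type I replicate 2, 10 and 0 without neurons replicate 1, 145 and 4 without neurons replicate 2, 11 and 0 without brat RNAi replicate 1, 242 and 6 without brat RNAi replicate 2, 377 and 23 without brat RNAi numb RNAi replicate 1, and 275 and 16 without brat RNAi numb RNAi replicate 2. The cause of these shifts was not tested. With the SBa code as a replicate block, which leaves 1 residual degree of freedom, 2298 genes were lower and 2313 higher over all libraries. Over the 2 groups these were 2260 and 2401. The meaning of the code is not stated, and the main fit leaves it out. Differences between replicates 1 and 2 correlated across genes between neurons and type I neuroblasts at r = 0.74. Ratios within codes 27 and 51 correlated at r = 0.73, and ratios taken across the codes at r = -0.02. Genes 2-fold lower or higher in both codes, 935 and 727, became 1971 and 2577 at 1.5-fold, 159 and 6 at 4-fold, 548 and 1546 with library totals, and 415 and 446 with the offsets; the higher count was 478 with DESeq2 size factors. The log2 fold change of abd-A (0.75) was -0.044 with the offsets and ran from -0.65 (without neurons replicate 2) to 1.55 (without neurons replicate 1) when 1 library was left out, and that of ATPsyn-beta (0.85) from -1.36 (without neurons replicate 1) to 2.885 (without type I replicate 1). The total count was lowest in neurons replicate 2 (5407777) among the 4 libraries compared.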

Other observations

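The 17 genes that were at least 2-fold lower in neurons in SBa code 27 and at least 2-fold higher in SBa code 51 include neuronal genes. The active zone scaffold gene brp had 48.6 and 20.5 CPM of H3K4me3 in type I neuroblasts and neurons of code 27, and 9.85 and 62.3 CPM in code 51. The RNA-binding protein gene Imp, a temporal factor of neuroblasts and early-born neurons, had 9.94 and 3.69 CPM in code 27 and 3.995 and 13.1 CPM in code 51. The transcriptional repressor gene cwo, the most strongly marked of the 17, had 87.1 and 33.6 CPM in code 27 and 27.3 and 70.4 CPM in code 51. The libraries of the groups overlap in all 3 genes, which were chosen after their values were seen.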
